A study of Mus musculus with 8 samples.

Results

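The Siglec family genes described here are 6 rows of a table of 54532 mouse genes, picked by gene name: Siglec1, Siglece, Siglecf, Siglecg, Cd22 and Cd33. Levels were measured by RNA sequencing in neutrophils sorted from mammary tumours of Balb/c mice. The tumours were 2208L, a mammary cancer line of mice, implanted in the fat pad and taken at a diameter of 1 cm. ICAM1high tumour-infiltrating neutrophils (4 libraries) were compared with ICAM1low tumour-infiltrating neutrophils (4 libraries). All cells came from untreated tumour-bearing animals, and ICAM1 (CD54), an adhesion molecule that binds beta2 integrins, was the sorting marker. No neutrophils from blood or from tumour-free mice were analysed here. The labels call the replicates biological but do not tie them to separate mice, and p-values cover only the spread between these samples.

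Siglecs are lectins of the immunoglobulin superfamily that bind sialic acid, the sugar that caps many glycans on mammalian cells. Most of them carry a tyrosine motif (ITIM) in the cytoplasmic tail that recruits the phosphatases SHP-1 and SHP-2 and dampens activating signals. Others have no such motif and act in adhesion, or pair with the adaptor DAP12, which recruits the kinase Syk. Neutrophils of mice are known for Siglec-E and CD33, macrophages for Siglec-1, eosinophils and a subset of tumour neutrophils for Siglec-F, and B cells for CD22 and Siglec-G.

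The members lie at 2 sites. Siglec1 (ENSMUSG00000027322) is on mm10 chromosome 2 at 131069220 to 131086765, minus strand, and the other 5 are on chromosome 7. Siglecf (ENSMUSG00000039013, 43351341 to 43359531, plus strand), Siglecg (ENSMUSG00000030468, 43408204 to 43418358, plus strand), Cd33 (ENSMUSG00000004609, 43524216 to 43544428, minus strand) and Siglece (ENSMUSG00000030474, 43651070 to 43660161, minus strand) share a stretch of 309 kb. Cd22 (ENSMUSG00000030577, 30865402 to 30880342, minus strand) lies apart from them on the same chromosome. All 6 are protein-coding. The only gene that overlaps a member is Gm29439, an antisense gene of Cd22 with 0 counts. Of the 50-base words in member transcripts, 0% of Siglece, 0.206% of Siglecf, 0.458% of Cd33, 1.33% of Siglec1, 4.64% of Siglecg and 7.84% of Cd22 also occur in transcripts of other genes. Siglecf and Siglecg share some of these words with each other.

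Siglecf and Cd33 are genes of the same cluster whose transcripts differed in opposite directions between the fractions. They hold the longest run of identical bases shared by any pair of the member promoters compared. RefSeq promoter windows on GRCm38.p6, short stretches around each start site, matched 5 of the 6 members, all but Siglec1. For Siglecg only the first of its 2 windows was compared with the others. The RefSeq start of Cd33 lies inside the deposited gene span. The run of 16 bases, in capitals, begins 27 bases before the Siglecf start (window chr7:43351254-43351340, plus strand) and 157 bases before the Cd33 start (window chr7:43533302-43533388, minus strand):
Siglecf: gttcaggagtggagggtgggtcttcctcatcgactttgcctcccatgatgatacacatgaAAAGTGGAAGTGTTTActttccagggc
Cd33: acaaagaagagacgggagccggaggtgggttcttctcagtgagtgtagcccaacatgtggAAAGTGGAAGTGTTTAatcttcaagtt
Over these 87 bases, aligned without gaps, 38 are identical, of which 22 lie outside the run. Among 32851 mouse promoter windows, the run occurs on either strand in 2, those of Siglecf and Cd33 from which it was taken. It includes GGAAGT, letters found on either strand in 23.8% of all windows. GAGGAA, a core of sites bound by the myeloid factor PU.1, was searched on both strands and is in 28.3% of all windows. It occurs 3 times in the Siglece window, 1 time in each of those of Siglecf and Cd33, and not in that of Cd22. Of the 2 Siglecg windows, one holds 2 matches and the other 0. Such matches describe letters only.

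Depth and purity bear on every value below. Totals ran from 10328575 to 20625309 counts in ICAM1high and from 16768777 to 22751975 in ICAM1low (exact two-sided permutation test of the totals, n = 4, p = 0.171). Icam1 itself was higher in ICAM1high, at 1459 ± 202 against 848 ± 214 CPM, read counts relative to the TMM-scaled library size (SD, n = 4). That is 0.78 on the log2 scale (SE 0.20, edgeR adjusted p = 0.0105). Neutrophil markers were detected in both fractions, and all 13 on the list fell in ICAM1high (12 under library totals). Among them were Cxcr1, a chemokine receptor, at -2.88 and Hdc, which makes histamine, at -2.09 on the log2 scale. The list summed to 7802 to 10573 CPM in ICAM1high against 35672 to 73376 CPM in ICAM1low. Its levels differed widely, as 4 genes picked after their values were seen show. Ly6g and Camp averaged 3.78 and 0.872 CPM in ICAM1high against 35.0 and 9.42 CPM in ICAM1low. Csf3r and S100a9 averaged 2704 and 2392 CPM in ICAM1high against 7500 and 19179 CPM in ICAM1low. Of 13 macrophage markers, 11 rose and 0 fell (13 rose under library totals, 12 without the 2 libraries named below), among them the transcription factor Maf at 3.65, with a summed level of 9869 to 16634 CPM in ICAM1high against 1183 to 1850 CPM in ICAM1low. Of all genes tested, 22.6% were called higher and 19.6% lower. In sorted bulk samples such as these, fewer cells of a type and less RNA per cell cannot be told apart. ICAM1high replicate 1 and ICAM1low replicate 4 stood apart from their groups: the chi-square between pairs of libraries, divided by its degrees of freedom, was 91.1 to 105 for pairs with ICAM1high replicate 1 and 12.6 to 20.8 for other ICAM1high pairs. It was 102 to 221 for pairs with ICAM1low replicate 4 and 24.9 to 61.3 for other ICAM1low pairs. Without both of them, all genes called numbered 7027, against 5920 with them.

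The ICAM1high fraction held more Siglec1, Cd22 and Siglecf transcript and less Cd33 and Siglece transcript than the ICAM1low fraction. Siglec1 stood at 110.05 ± 43.7 against 5.39 ± 2.04 CPM, and Cd33, the member with the most counts, at 521 ± 79.4 against 1189 ± 199 CPM (SD, n = 4). All 6 members passed the filter on low counts. Of these, 3 were called higher, where 22.6% of all 14051 genes tested were, and 2 were called lower, where 19.6% of all genes were (42.1% in either direction). In those 5 members the CPM values of the fractions did not overlap, which held for 41.5% of all genes tested: 23.4% had all ICAM1high libraries above, and 18% had all below. The median log2 fold change of all genes was 0.08. With scaling by library totals alone that median became 0.76, and then Siglec1, Cd22 and Siglecf still passed as higher and Cd33 as lower, whereas Siglece, at -0.20 with an edgeR adjusted p of 0.373, did not.

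**Figure D1:**
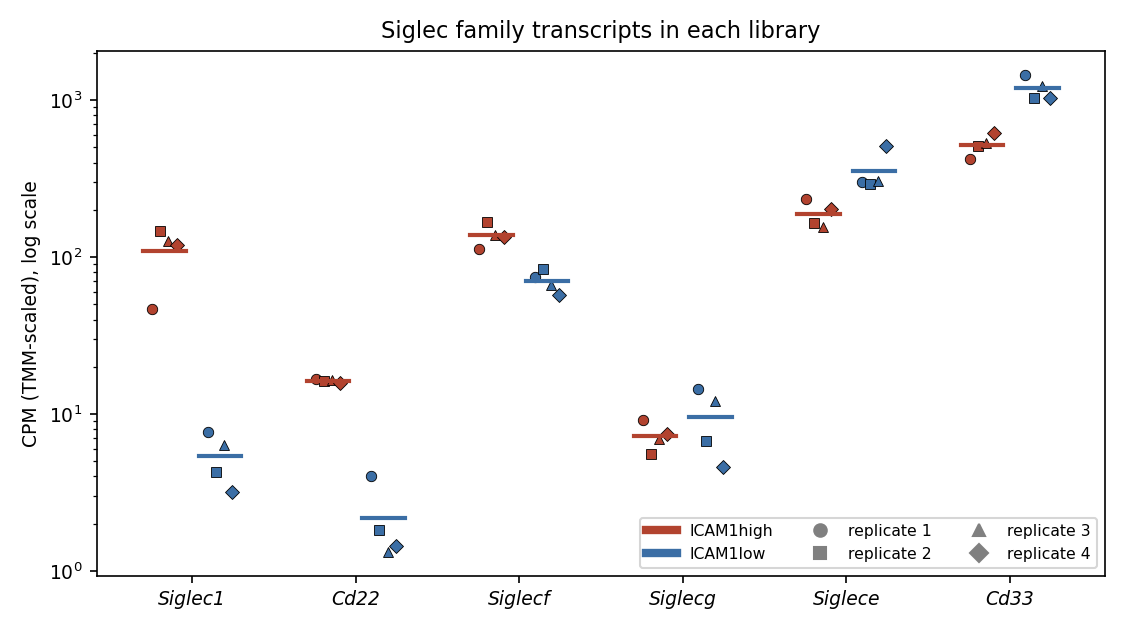
CPM of the 6 members in each library on a log axis, ICAM1high in red left of ICAM1low in blue, with 1 symbol per replicate and a bar at the mean of 4. All ICAM1high libraries lie above all ICAM1low libraries for Siglec1, Cd22 and Siglecf, and below them for Siglece and Cd33.

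Siglec1, or sialoadhesin, is a receptor of tissue macrophages that binds sialylated cells and vesicles and lacks an ITIM. ICAM1high replicates 1 to 4 held 46.8, 147, 127 and 119.6 CPM of Siglec1, and ICAM1low replicates 1 to 4 held 7.70, 4.28, 6.38 and 3.18 CPM. Replicate 1 was the lowest of the ICAM1high libraries and was still above every ICAM1low library. The log2 fold change was 4.35 (SE 0.40, edgeR adjusted p = 3.1e-05), a 20.4-fold difference, and it ranked 107th from the top among the 14051 genes tested. Without ICAM1high replicate 1 it was 4.58, and without both that library and ICAM1low replicate 4 it was 4.39. The F4/80 gene Adgre1, a macrophage marker, rose by 3.60 on the log2 scale (edgeR adjusted p = 1.04e-06). Per count of Adgre1 there were 0.136, 0.419, 0.366 and 0.434 counts of Siglec1 in ICAM1high replicates 1 to 4, against 0.282, 0.146, 0.213 and 0.143 in ICAM1low, so these ratios overlapped. The part of the macrophage markers in the Siglec1 difference was not tested. Siglec1 is also known as a target of type I interferon. Of 15 other interferon targets 10 fell and 2 rose, beside 19.6% of all genes lower and 22.6% higher. Their median log2 fold change was -0.73. Under library totals 3 fell and 3 rose, and 11 fell without ICAM1high replicate 1 and ICAM1low replicate 4. Oasl1, of the oligoadenylate synthetase family, was at 129.7 ± 24.1 against 395 ± 55.5 CPM (SD, n = 4), a change of -1.61 (SE 0.18, edgeR adjusted p = 8.81e-05). The 2 that rose were Ifi44 at 3.07 (SE 0.25, edgeR adjusted p = 1.55e-05) and Mx1, an antiviral GTPase, at 3.37 (SE 0.47, edgeR adjusted p = 0.000352).

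Cd22, best known as an inhibitory co-receptor of the B cell receptor, was a low-level transcript that rose, with a narrow spread in ICAM1high and a wide one in ICAM1low. Its level was 16.7, 16.1, 16.5 and 15.7 CPM in ICAM1high replicates 1 to 4 and 4.04, 1.83, 1.32 and 1.44 CPM in ICAM1low, from 206 to 405 and from 23 to 55 counts per library. The ICAM1high libraries lay within a coefficient of variation of 2.56%, below the 5.68% that counting error alone gives at these counts, and the ICAM1low libraries at 58.9%, against 18.6% from counting error, with replicate 1 the highest. The log2 fold change was 2.92 (SE 0.34, edgeR adjusted p = 0.000132), or 7.59-fold. B cell markers were checked beside it, first as 5 lineage genes of that list, put together after their values were seen. The summed level of Ms4a1, Pax5, Blk, Fcer2a and Cr2 was 10.9 CPM in ICAM1high replicate 1 and 5.94 CPM in ICAM1low replicate 1, but 0.341 to 1.07 CPM in the other 3 ICAM1high libraries and 0 to 0.403 CPM in the other 3 ICAM1low libraries. These 5 genes were too low to be tested. Without ICAM1low replicate 1 the Cd22 difference was 3.41. Over all 9 B cell markers, 4 were tested, of which 2 rose and 0 fell, beside 22.6% of all genes higher and 19.6% lower. The 2 that rose were Cd79b, a B cell receptor subunit, at 5.21 ± 3.20 against 0.308 ± 0.370 CPM, and Ighm, the IgM heavy chain, at 57.3 ± 22.1 against 7.65 ± 2.99 CPM (SD, n = 4). The summed B cell list ran from 46.4 to 123 CPM in ICAM1high and from 7.24 to 21.6 CPM in ICAM1low, and its part in the Cd22 result beyond these values was not tested. Per count of Adgre1 there were 0.0497 ± 0.00493 counts of Cd22 in ICAM1high and 0.0797 ± 0.0461 in ICAM1low (SD, n = 4). These ratios overlapped, at 0.0461 to 0.0569 in ICAM1high and 0.0441 to 0.147 in ICAM1low, where replicate 1 was the highest.

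Siglecf encodes an inhibitory receptor that marks eosinophils and alveolar macrophages and, in mouse lung tumours, a tumour-promoting neutrophil subset. It measured 113, 166, 138 and 134 CPM in ICAM1high replicates 1 to 4 against 75.1, 83.7, 66.8 and 57.0 CPM in ICAM1low. The lowest ICAM1high library was replicate 1 and the highest ICAM1low library was replicate 2, with a gap between them. The difference was 0.96 on the log2 scale (SE 0.17, edgeR adjusted p = 0.0016), a 1.95-fold rise. In replicates 1 and 2 alone it was 0.81 with an edgeR adjusted p of 0.085. Eosinophil markers differed in level. Epx, Prg2 and Prg3, the eosinophil granule genes, averaged 0 to 0.0103 CPM in ICAM1high and 0 to 0.122 CPM in ICAM1low. Ear1 and Ear6 had 0 counts in every library. Ccr3, the eotaxin receptor, was lower in ICAM1high, at 3.80 ± 0.321 against 11.5 ± 2.71 CPM (SD, n = 4). Of 9 eosinophil markers 3 were tested, of which 1 rose and 1 fell, beside 22.6% of all genes higher and 19.6% lower. Without ICAM1high replicate 1 and ICAM1low replicate 4 the number called higher was 0. The gene that rose with all libraries was Ear2, named after its level was known, at 1.56 ± 1.25 against 0.313 ± 0.225 CPM (SD, n = 4). The summed eosinophil list was 4.54 to 8.998 CPM in ICAM1high and 10.05 to 15.6 CPM in ICAM1low, and in ICAM1low Ccr3 held most of it. The part of eosinophils in the Siglecf result was not tested. Siglecf was present at 0.421 ± 0.0740 counts per count of Adgre1 in ICAM1high and 2.60 ± 0.274 in ICAM1low (SD, n = 4), and no ICAM1high library reached an ICAM1low one in this ratio. Of all genes tested, 22.6% were called higher and 19.6% lower with TMM scaling. Among 11 genes reported in Siglecf-high tumour neutrophils, 1 rose and 5 fell (3 and 4 under library totals). Their median log2 fold change was -0.48. Those that fell included Xbp1, a transcription factor of the unfolded protein response, at -1.61 (SE 0.15, edgeR adjusted p = 3.33e-05), Hif1a, the hypoxia-inducible factor, at -1.44 (SE 0.15), and Clec7a, the beta-glucan receptor dectin-1, at -1.38 (SE 0.18). The gene that rose was Ltc4s, named after its value was seen, at 1.30 (SE 0.43, edgeR adjusted p = 0.0339). Among the 5 that did not pass, log2 fold changes ran from Cd274 at -0.48 to Clec5a at 0.48.

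CD33 is a classic marker of human myeloid cells, and the mouse protein lacks the canonical ITIM and can pair with DAP12. Its level was 423, 509.7, 537 and 615 CPM in ICAM1high replicates 1 to 4, against 1455, 1035, 1225 and 1039 CPM in ICAM1low. Every ICAM1high library was well below every ICAM1low library. The log2 fold change was -1.19 (SE 0.18, edgeR adjusted p = 0.000503), so the level in ICAM1low was 2.28-fold that in ICAM1high. Under library totals the difference was -0.50 with an edgeR adjusted p of 0.0433.

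Siglece encodes Siglec-E, the ITIM-bearing receptor of mouse neutrophils, monocytes and macrophages that restrains their recruitment and oxidative burst. ICAM1high replicates 1 to 4 held 234, 166, 156 and 202 CPM, and ICAM1low replicates 1 to 4 held 302, 294, 307 and 507 CPM. ICAM1low replicate 4 was far above the other 3 libraries of its fraction, which lay close together, and no ICAM1high library reached them. The log2 fold change was -0.90 (SE 0.22, edgeR adjusted p = 0.00785), and -0.67 without ICAM1low replicate 4 (edgeR adjusted p = 0.00989). It was -0.58 in replicates 1 and 2 alone, with an edgeR adjusted p of 0.193, and -1.25 in replicates 3 and 4 alone, with an edgeR adjusted p of 0.0433.

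A neutrophil receptor was set beside these members within each library. Csf3r, the G-CSF receptor, changed by -1.47 (SE 0.15, edgeR adjusted p = 4.64e-05). Per count of Csf3r, Cd33 had 0.193 ± 0.0243 counts in ICAM1high and 0.158 ± 0.0117 in ICAM1low, and Siglece had 0.0701 ± 0.0129 in ICAM1high and 0.0480 ± 0.0181 in ICAM1low (SD, n = 4). The Cd33 ratio was 0.158 to 0.210 in ICAM1high and 0.149 to 0.175 in ICAM1low, and the Siglece ratio 0.0561 to 0.0873 in ICAM1high and 0.0363 to 0.0748 in ICAM1low, so both overlapped. The part of the neutrophil markers in the fall of both members was not tested.

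Siglecg, an inhibitory receptor of B cells that also binds CD24, did not pass. It was at 9.09, 5.58, 6.95 and 7.47 CPM in ICAM1high replicates 1 to 4 and at 14.5, 6.73, 12.1 and 4.62 CPM in ICAM1low. The ICAM1low libraries spread on both sides of the ICAM1high ones. The log2 fold change was -0.38 (SE 0.35, edgeR adjusted p = 0.4), and 74 to 211 counts per ICAM1low library lay behind it. It changed sign to 0.28 under library totals and passed at -0.78 (edgeR adjusted p = 0.041) only without both ICAM1high replicate 1 and ICAM1low replicate 4, among the 21 alternatives tried.

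**Figure D2:**
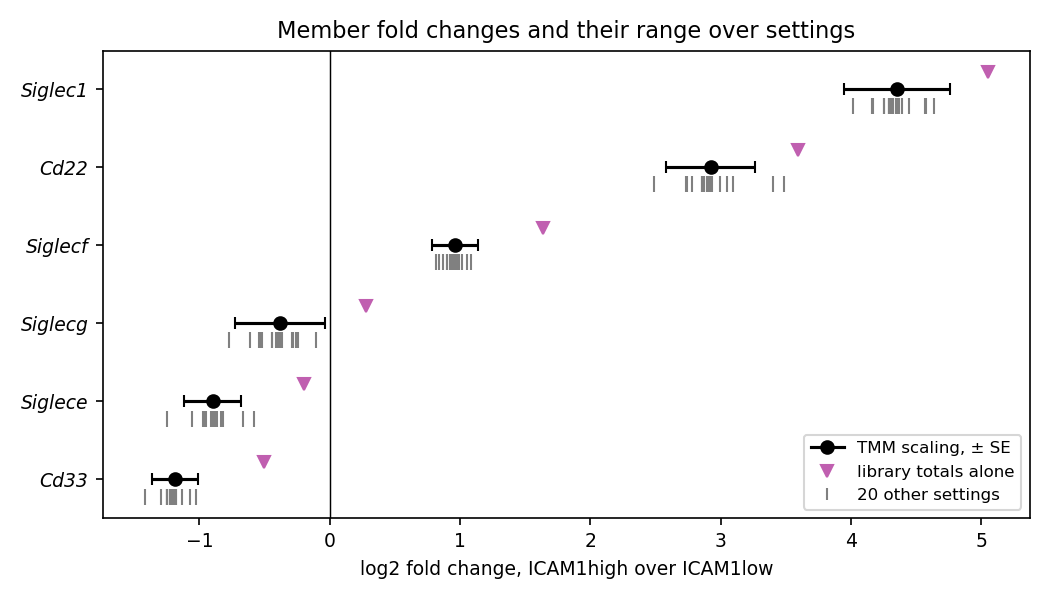
Log2 fold change of each member, ICAM1high over ICAM1low, with its SE under TMM scaling (black), under library totals alone (purple) and under 20 other settings (grey ticks). Siglec1, Cd22 and Siglecf lie to the right of 0 and Siglece and Cd33 to the left in every setting, and Siglecg crosses 0 under library totals.

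Ratios of 2 members within a library do not depend on the scaling. Siglecf had 0.483, 1.00, 0.884 and 0.663 counts per count of Siglece in ICAM1high replicates 1 to 4, against 0.249, 0.285, 0.218 and 0.112 in ICAM1low. Per count of Cd33, Siglecf had 0.217 to 0.326 in ICAM1high and 0.0516 to 0.0809 in ICAM1low. Siglec1 had 0.415 to 0.923 counts per count of Siglecf in ICAM1high and 0.0511 to 0.103 in ICAM1low. In these 3 ratios no ICAM1high library overlapped an ICAM1low one. Siglece per count of Cd33 overlapped, at 0.290 to 0.553 in ICAM1high and 0.207 to 0.488 in ICAM1low.

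Levels of different genes were compared as RPKM, CPM divided by gene length in kilobases. In ICAM1high the order was Siglece at 102 ± 19.3, Cd33 at 67.1 ± 10.2, Siglecf at 49.3 ± 7.85, Siglec1 at 15.4 ± 6.11, Cd22 at 3.22 ± 0.0825 and Siglecg at 1.51 ± 0.302 RPKM (SD, n = 4). Only Cd33 and Siglecf, among neighbours in that order, had overlapping ranges, though Cd33 was above Siglecf in 4 of 4 libraries. In ICAM1low the order was Siglece at 191 ± 55.9, Cd33 at 153 ± 25.6, Siglecf at 25.3 ± 4.09, Siglecg at 1.98 ± 0.959, Siglec1 at 0.754 ± 0.285 and Cd22 at 0.428 ± 0.252 RPKM (SD, n = 4). Here Siglece overlapped Cd33, Siglecg overlapped Siglec1 and Siglec1 overlapped Cd22. The deposited length is the union of all exons, which for Cd33 is 7771 bases although its longest coding transcript has 5728. With the longest coding transcript as length, Cd33 was first in ICAM1low, at 207 against 191 RPKM for Siglece, so their order depends on the length used.

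Siglecf, Siglec1 and Cd22 made up more of the summed member RPKM in every ICAM1high library than in any ICAM1low library. Siglecf made up 20.7 ± 3.37% in ICAM1high and 6.97 ± 1.84% in ICAM1low, and Siglec1 made up 6.45 ± 2.57% in ICAM1high and 0.206 ± 0.0798% in ICAM1low (SD, n = 4). The share of Cd22 was 1.35 ± 0.108% in ICAM1high and 0.116 ± 0.0656% in ICAM1low. For Cd33 it was 28.0 ± 3.49% in ICAM1high, from 23.4 to 30.7%, and 41.5 ± 7.67% in ICAM1low, from 31.1 to 49.0%. Siglece was first on average in both fractions, at 42.9 ± 7.94% in ICAM1high and 50.7 ± 9.13% in ICAM1low, with overlapping libraries. The summed member RPKM was 239 ± 13.9 in ICAM1high and 372 ± 45.3 in ICAM1low (SD, n = 4).

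**Figure D3:**
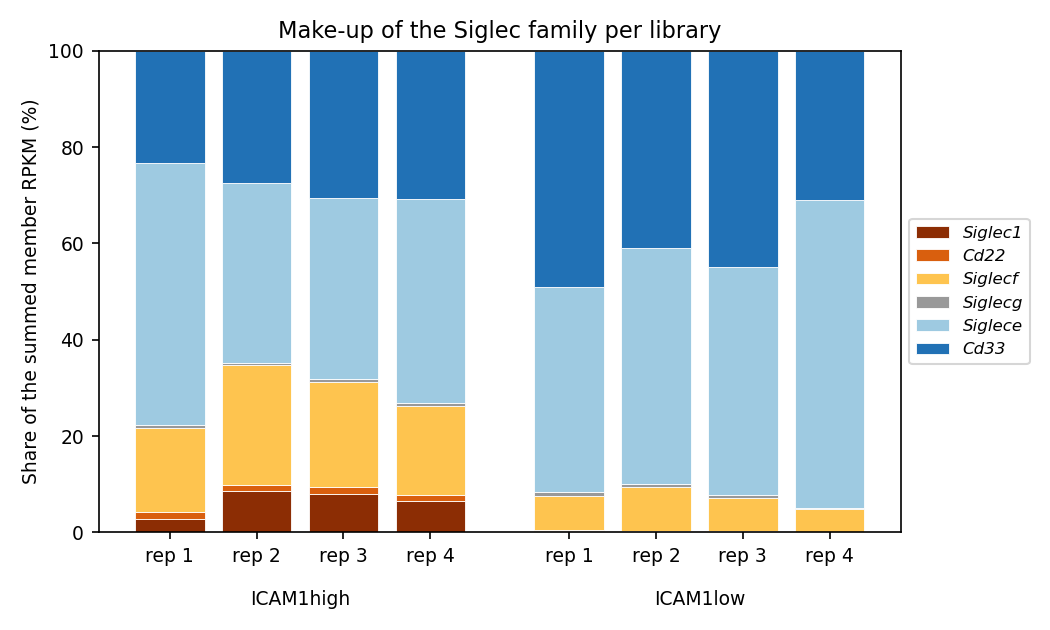
Stacked bars of each member's share of the summed member RPKM per library, in percent, with the 4 ICAM1high libraries left of the 4 ICAM1low libraries. Siglecf and Siglec1 take a larger part of every ICAM1high bar, and Siglece and Cd33 fill most of every ICAM1low bar.

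Relatives outside the 6 were Mag, Siglech and Siglec15. Mag, the myelin-associated glycoprotein also called Siglec-4, lies next to Cd22 on chromosome 7 (30899176 to 30914873), 18833 bases away with 1 gene in between that had 15 counts over all libraries. Mag had 6.42, 4.00, 3.91 and 3.58 CPM in ICAM1high replicates 1 to 4 and 0.587, 1.04, 1.09 and 0.749 CPM in ICAM1low. The fractions did not overlap, and the log2 fold change was 2.35 (SE 0.35, edgeR adjusted p = 0.000526), from 47 to 156 counts per ICAM1high library and 8 to 19 per ICAM1low library. Siglech, a marker of plasmacytoid dendritic cells that pairs with DAP12, had 0 to 10 counts per ICAM1high library and 0 to 9 per ICAM1low library, and Siglec15, an osteoclast Siglec, had 0 to 1 in ICAM1high and 0 in ICAM1low. Neither passed the filter.

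Signalling partners of Siglecs were mostly lower in ICAM1high. Of 12 listed genes 9 fell, 1 rose and 2 did not pass, beside 19.6% of all genes lower and 22.6% higher, and their median log2 fold change was -0.79. Under library totals 0 fell and 3 rose, so the direction of this list rests on the scaling. The kinase Syk was at 614 ± 76.6 in ICAM1high and 1306 ± 222 CPM in ICAM1low (SD, n = 4), or -1.09 on the log2 scale (SE 0.17, edgeR adjusted p = 0.000677). Fgr and Lyn, Src-family kinases that phosphorylate ITIMs, changed by -0.94 (SE 0.14, edgeR adjusted p = 0.000491) and -0.81 (SE 0.13, edgeR adjusted p = 0.000969). Tyrobp, which encodes DAP12, and Ptpn6, which encodes SHP-1, were picked after their values were seen. Tyrobp was at 534 ± 238 against 1235 ± 644 CPM, with ICAM1high replicate 1 at 887 CPM above ICAM1low replicate 1 at 786 CPM, and its log2 fold change was -1.21 (SE 0.37, edgeR adjusted p = 0.0228). Ptpn6 was at 551 ± 105 against 945 ± 115 CPM, a change of -0.78 (SE 0.17, edgeR adjusted p = 0.00493).

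Genes that make, modify and remove sialic acid, the ligand of the family, moved in both directions. Of all genes tested, 22.6% were called higher and 19.6% lower with TMM scaling. Of 10 genes of synthesis and handling 9 were tested, of which 5 rose and 2 fell (7 and 1 under library totals). Their median log2 fold change was 0.65. Cmah, which turns the acetyl form of sialic acid into the glycolyl form that mouse CD22 prefers, was at 15.6, 19.7, 22.2 and 38.9 CPM in ICAM1high replicates 1 to 4 against 121, 74.3, 73.9 and 67.5 CPM in ICAM1low. The fractions were apart, and its log2 fold change was -1.81 (SE 0.30, edgeR adjusted p = 0.000962). Siae, an esterase that removes acetyl groups which block binding by CD22, was at 9.01, 11.5, 13.0 and 10.2 CPM in ICAM1high against 0.367, 1.16, 2.01 and 0.187 CPM in ICAM1low, a change of 3.52 (SE 0.54, edgeR adjusted p = 0.00064). Npl, the lyase that breaks sialic acid down, was at 10.1 ± 3.70 against 0.848 ± 0.346 CPM (SD, n = 4), a change of 3.57 (SE 0.38, edgeR adjusted p = 6.86e-05).

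Sialyltransferases attach the sugar to glycans. Of 20 genes 11 were tested, of which 4 rose and 4 fell (5 and 2 under library totals), with a median of -0.09. With TMM scaling, 22.6% of all genes were higher and 19.6% lower. St3gal6, St3gal5 and St3gal4, which make alpha2,3 linkages, fell, by 1.84 (SE 0.18, edgeR adjusted p = 4.61e-05), by 1.52 (SE 0.17) and by 0.88 (SE 0.13) on the log2 scale. St3gal6 was at 53.2 ± 7.48 against 190.2 ± 37.3 CPM (SD, n = 4). St3gal4, which adds sialic acid to selectin ligands of neutrophils, lost its call under library totals, at -0.20 (edgeR adjusted p = 0.274). St6gal1, which makes the alpha2,6 linkage bound by CD22, was chosen with its values known. It was at 23.1, 35.3, 30.3 and 25.2 CPM in ICAM1high replicates 1 to 4 against 9.46, 9.72, 8.51 and 3.18 CPM in ICAM1low, a change of 1.88 (SE 0.32, edgeR adjusted p = 0.00115). St3gal2, another alpha2,3 enzyme picked after its value was seen, rose by 0.96 (SE 0.22, edgeR adjusted p = 0.00642).

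The sialidase list of 5 genes included Ctsa, which is not itself a sialidase. Of the list 3 were tested, with 2 higher and 1 lower, beside 22.6% of all genes higher and 19.6% lower. The 2 that rose were Ctsa and Neu3, the latter named after its value was seen. Neu3 was low, at 1.02 ± 0.142 CPM in ICAM1high against 0.213 ± 0.216 CPM in ICAM1low (SD, n = 4), a change of 2.24 (SE 0.79, edgeR adjusted p = 0.0413). Neu1, the lysosomal sialidase, was at 265 ± 34.0 against 585 ± 63.9 CPM (SD, n = 4), a change of -1.14 (SE 0.15, edgeR adjusted p = 0.000296), whereas Ctsa, the protective protein that stabilises it, was at 967 ± 175 against 415 ± 80.7 CPM, a change of 1.22 (SE 0.19, edgeR adjusted p = 0.00072). Of 6 genes for sialylated carrier proteins, 1 rose and 2 fell, beside the same shares of all genes. When both libraries that stood apart were left out, 4 fell. Spn, which encodes CD43, a carrier bound by Siglec-1, rose by 1.27 (SE 0.18, edgeR adjusted p = 0.00038). Cd24a, a carrier bound by Siglec-G, changed by -1.22 (SE 0.18, edgeR adjusted p = 0.000526), and Selplg, the P-selectin ligand, by -1.73 (SE 0.22, edgeR adjusted p = 0.000194).

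**Figure D4:**
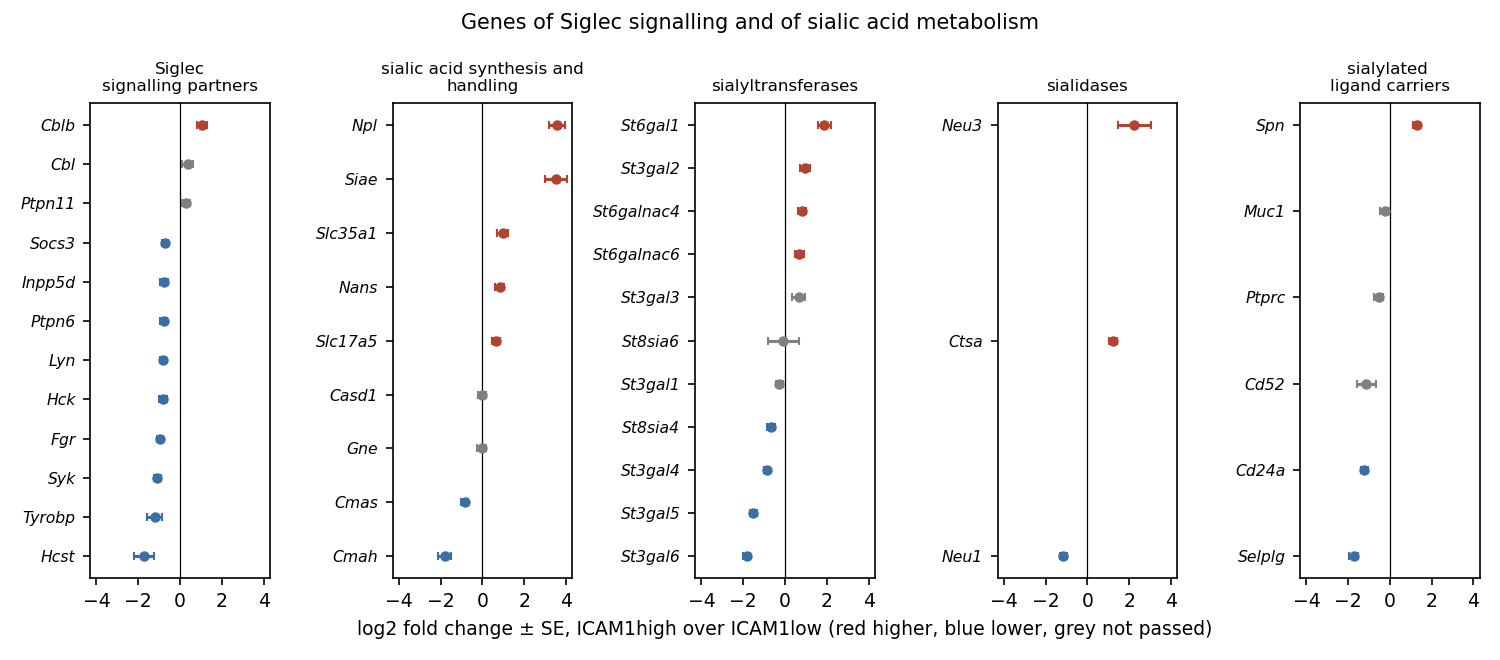
Log2 fold changes with SE, ICAM1high over ICAM1low, of tested genes in 5 lists, with genes that rose in red, those that fell in blue and those that did not pass in grey. Npl and Siae lie farthest to the right, and St3gal6, Cmah, Selplg and Hcst lie farthest to the left.

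Genes whose log2 CPM followed a member most closely over the 8 libraries were taken from 7647 candidates whose mean log2 CPM was 3 or more. The points share fraction and depth, so these are descriptions. Siglec1 was followed by Ptger4 (Pearson r = 0.997), Mef2c (0.997) and Prr12 (0.995). Cd22 was followed by Rasal3 (0.997), Tmem229b (0.99) and Ms4a6b (0.99), and Siglecf by Mxd4 (0.995), Tnfrsf21 (0.994) and Smc1a (0.993). For Cd33 the nearest were Ulk1 (0.997), Stat3 (0.996) and Dennd3 (0.996), and for Siglece they were Nfkbib (0.992), Usb1 (0.99) and Cdc42ep2 (0.989). Siglecg had no gene above 0.913, the value for Tars2.

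Markers of other cells that the gate could hold differed in level and direction. Of all genes tested, 22.6% were called higher and 19.6% lower with TMM scaling. Mast cell and basophil markers summed to 0.531 to 1.75 CPM in ICAM1high and 0.44 to 1.28 CPM in ICAM1low, and none was tested. T and NK cell markers summed to 23.8 to 34.9 CPM in ICAM1high and 14.3 to 22.4 CPM in ICAM1low, with 1 of 3 tested higher (Cd4) and 1 lower (Cd3d, not lower under library totals). Cd4 and Cd3d averaged 16.9 and 5.92 CPM in ICAM1high and 1.18 and 14.4 CPM in ICAM1low, and so held most of these sums. The untested Cd3e and Trac averaged 0.545 and 0.325 CPM in ICAM1high and 0.406 and 0.305 CPM in ICAM1low. The plasmacytoid dendritic cell markers summed to 124 to 198 CPM in ICAM1high, all above the 56.1 to 99.6 CPM in ICAM1low. Of 3 tested, Tcf4, a transcription factor, and Bst2, an interferon-induced surface protein, rose by 1.89 and 1.16 on the log2 scale, and Ly6d changed by -1.55, a call that was lost under library totals. Tcf4, Bst2 and Ly6d averaged 39.2, 99.5 and 9.21 CPM in ICAM1high and so held most of the sum. The untested Siglech, Ccr9, Klk1 and Cox6a2 averaged 0.152 to 0.687 CPM in ICAM1high and 0 to 0.229 CPM in ICAM1low. Tumour epithelial markers were lower in ICAM1high, with 4 of 6 tested that fell (3 under library totals, 5 without ICAM1high replicate 1 and ICAM1low replicate 4), among them Epcam at -1.61 and the keratins Krt8 at -1.47 and Krt18 at -1.41, and a summed level of 111 to 164 CPM against 258 to 461 CPM in ICAM1low. Their part in the member differences was not tested.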

How the data were processed

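Messenger RNA libraries were made from 100 ng of total RNA per sample. The authors deposited 1 table of whole-number read counts per gene, with no normalization; its gene length in bases is an other quantity, per the file headers, and was used for RPKM. HISAT2 and mm10 are named in the submitters' processing notes; the sources used here do not give the counting tool, strand setting or filters. Gene IDs matched GENCODE M21 for 99.8% of rows, and all 6 members had the same positions there.

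In R 4.3.3, genes passing filterByExpr (14051) were scaled by TMM, which lines up the bulk of genes between libraries, and compared by edgeR 4.0.16 (quasi-likelihood test), unpaired, with Benjamini-Hochberg adjustment over all genes and a threshold of 0.05. SE was derived from the log2 fold change and its F statistic. Alternatives used DESeq2 1.42.0, limma 3.58.1 voom, other scalings and filters, a robust fit, a replicate block, library numbers and left-out libraries. On simulated data with 200 changed genes, edgeR recovered 58.2% of 67 genes changed 4-fold, 20.9% of 67 changed 2-fold and 4.55% of 66 changed 1.5-fold among 14051, with 4 false calls of 60. The measured data had 5920 genes called, far more than the simulation changed, which alters the cutoff set by the adjustment. These rates therefore do not give the recovery in this comparison. Named genes were the members, their relatives, Icam1, up to 3 genes per list with the smallest p (mean log2 CPM of 1 or more), and the 3 genes most like each member. The members and the 16 lists were chosen with earlier results of these data known. 1 B cell and 1 macrophage marker are not reported here and are in no sum.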

Additional observations from a re-analysis of the deposited data

Results flagged for a closer look

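In 7 of the groups of 4 libraries checked, 1 library lay far from the other 3; chance flags about 1 in 20 groups, and 94 were checked. Siglece in ICAM1low replicate 4 was at 507 CPM, against 294 to 307 CPM in the other 3. Mag in ICAM1high replicate 1 was at 6.42 CPM, against 3.58 to 4.00 CPM. Cmah in ICAM1low replicate 1 was at 121 CPM, against 67.5 to 74.3 CPM. Adgre1 in ICAM1high replicate 4 was at 276 CPM, below the 345 to 350.1 CPM of the others. Cd79b in ICAM1high replicate 1 was at 9.997 CPM, against 3.36 to 3.83 CPM. Ighm in ICAM1low replicate 1 was at 12.1 CPM, against 5.68 to 6.54 CPM. Siglech in ICAM1low replicate 2 was at 0.550 CPM, from 9 counts, with 0 counts in the other 3.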

How the results depend on the processing

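Siglec1, Cd22 and Cd33 kept direction and call in all 21 alternatives, with ranges of 4.02 to 5.05, 2.49 to 3.59 and -1.42 to -0.50 on the log2 scale. Under library totals Siglece was at -0.20 and Siglecg turned to 0.28, 1 member was called lower, and of all genes 6818 were higher and 839 lower (89% higher, against 53.6% with TMM); the cause was not tested. In replicates 1 and 2 alone Siglece was at -0.58 and Siglecf at 0.81, both short of the threshold, 1 member was called lower, and 3124 genes were called (1708 higher, 1416 lower); in replicates 3 and 4 alone 3262 were called (1658 higher, 1604 lower), each from fewer samples. Without ICAM1high replicate 1 and ICAM1low replicate 4, Siglecg passed at -0.78; the cause was not tested. Leaving out 1 library at a time changed no member's call, with Siglecg at -0.61 to -0.10. With the replicate block, Siglec1, Cd22, Siglecf, Siglecg, Siglece and Cd33 were at 4.33, 3.05, 0.96, -0.28, -0.88 and -1.19, with no call changed. Same-numbered libraries correlated at -0.566, 0.21, 0.184 and -0.3 after removal of group means. ICAM1high replicate 1 and ICAM1low replicate 4 stood apart from their groups, so these correlations do not settle whether the numbers mark a pairing.

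Under library totals mean RPKM in ICAM1high was 129 for Siglece, 62.9 for Siglecf, 1.90 for Siglecg, 4.08 for Cd22 and 85.3 for Cd33, and in ICAM1low 20.2 for Siglecf and 121 for Cd33. With the longest coding transcript as length, an alternative chosen after seeing the data, Siglecg was at 2.83 RPKM in ICAM1high and 3.70 in ICAM1low (1.05% and 0.866% of the family), Cd22 at 4.09 RPKM (1.52%) in ICAM1high, and Cd33 at 91.0 RPKM (33.6%) in ICAM1high and 207 RPKM in ICAM1low. Counts of list members under library totals, also added after seeing the data, stand beside the lists whose counts they change. The spread of every member but Cd22 in ICAM1high was above counting error.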
